A study of Mus musculus with 4 samples.

Results

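Aminoacyl-tRNA synthetases join each amino acid to its tRNA, the step that sets which amino acid a codon receives. A mouse cell makes one set of these enzymes for the cytosol and another, also encoded in the nucleus, for translation inside mitochondria. The 36 genes described here were chosen by symbol from the deposited gene count table, of 35976 gene rows in all, with 20 cytosolic enzymes and 16 mitochondrial enzymes, whose symbols end in 2. Symbols are the older ones without the suffix 1, so that Aars is the gene now also called Aars1. The choice went by symbol and not by value, though earlier results of these data were known when it was made. All 36 rows were found, and all 36 passed the filter on low counts, with between 120 (Wars2) and 11719 (Eprs) reads in a library.

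The libraries came from E14, a mouse embryonic stem cell line grown on gelatin in serum and LIF, the cytokine that holds such cells undifferentiated (strain field 12910la). There were 2 control libraries, with the genotype wild type, and 2 libraries with the genotype knocked down. In the latter a short hairpin RNA was directed at Lx8-SINE B2, an RNA whose name includes SINE B2, a family of short interspersed repeats. Per the labels' protocols, wild-type cells were transfected with 1000 ng of the pSuper puro vector, which expresses the hairpin, and selected 24 h later with 1 µg/ml puromycin for 3 days. That text stands on every sample, and the vector of the controls is not stated in them. The hairpin is not identified further, and the level of its target was not analysed here, since 0 rows carry its name. The titles of the knockdown libraries alone carry a batch number, so batch and knockdown cannot be told apart. Whether the 2 libraries of a group are from separate cultures is not stated either, so the spread behind each p-value is that between these libraries and may be only technical.

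Library totals were 16383323 to 19867689 reads, and the synthetases together took 0.503% to 0.575% of them. The stem cell label was checked against 8 pluripotency markers, all of which had between 1575 and 29918 reads in every library. Their summed level was 7188 and 7096 CPM in the controls and lower after knockdown, at 5208 and 5704 CPM. In log2 fold change 7 of 8 were below 0, against 49.5% of all genes. The groups did not overlap for only 2 of the 8, Dppa5a (log2 fold change -0.77) and Tdgf1. Both were lower, where 24.6% of all genes were lower without overlap. Of these, Tdgf1, a Nodal co-receptor, fell from 1133 and 1552 CPM to 571 and 602 CPM (edgeR adjusted p = 0.0438), a call lost with library totals as scaling and without either knockdown library. Among 8 fibroblast markers, Lum and Postn had 0 reads throughout and Col3a1 and Dcn at most 1. The summed level was 25.0 and 33.1 CPM in the controls and 11.0 and 11.8 CPM in the knockdown libraries (CPM, reads relative to library size, here with TMM scaling). Most of it was Thy1, at 13.3 and 12.9 CPM against 2.88 and 5.53 CPM, and Pdgfrb, at 9.51 and 16.5 CPM against 5.28 and 3.65 CPM. Their log2 fold changes were -1.64 and -1.54, and neither passed. Of the 4 fibroblast markers tested, 3 were below 0 and 1 above. The groups did not overlap for 2 of the 4, both lower, against 24.6% of all genes. The 6 primitive endoderm markers summed to 10.7 and 13.7 CPM in the controls and to 35.1 and 25.2 CPM in the knockdown libraries. Foxa2 had 2 to 36 reads and Afp 0 to 6. The 4 tested markers (Gata4, Gata6, Sox17 and Pdgfra) had log2 fold changes from 1.13 to 1.56. All 4 were higher without overlap, against 27.3% of all genes. All 4 were also higher at an unadjusted edgeR p below 0.05, against 11.0% of all genes. Of them 0 passed the edgeR test (lowest adjusted p = 0.110). The 5 neural markers summed to 121 and 127 CPM against 142 and 122 CPM, with 4 above 0 in log2 fold change and 1 below. Of these 1 passed, higher, against 0.876% of all genes. It was Neurod1, at 2.96 and 2.59 CPM in the controls and 11.2 and 12.3 CPM in the knockdown libraries (edgeR adjusted p = 0.0358). That call was not kept in every alternative. The part of these 4 marker lists in the synthetase values was not tested. In bulk RNA, fewer cells of a type and less RNA per cell cannot be told apart.

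When amino acids run short or eIF2 is phosphorylated, translation of the transcription factor ATF4 rises, and ATF4 then activates genes for amino acid synthesis, amino acid uptake and tRNA charging through C/EBP-ATF response elements. Many cytosolic synthetase genes are known ATF4 targets, and the mitochondrial ones as a set are not. The cytosolic genes were therefore also read as 11 genes commonly listed as ATF4 targets, called ATF4-linked below, and the 9 others. Promoters from RefSeq (GRCm38.p6, the same build as mm10) were found for 27 of the 36 genes, as 28 windows of 250 bases before to 50 bases after the start. The core of the response element, TGATGNAA, was searched on both strands. It lay in 5 of the 28 windows (17.9%), against 1304 of 32851 windows of all genes (3.97%). The 5 windows belonged to Aars, Gars, Iars, Tars and Yars, all of them ATF4-linked cytosolic genes. None of the 14 mitochondrial genes with a window held the core. A match is a description of letters, not of a bound site.

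Matches of 4 of the genes are shown because the 5 genes had nearly the same level in both groups, as given below. Each is printed 5′ to 3′ on the strand that reads the core, as 30 bases with the core in capitals, with its place relative to the start that the promoter table gives.
Gars, 30 bases before the start, chr6:55037960-55037989, minus strand: cgcccggtgcaTGATGAAAtagcgcagcca
Iars, from base 8 after the start, chr13:49682126-49682155, minus strand: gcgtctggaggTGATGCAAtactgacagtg
Tars, 15 bases before the start, chr15:11399655-11399684, plus strand: agctaaccagcTGATGCAAcgggactcctg
Yars, from base 4 after the start, chr4:129189895-129189924, plus strand: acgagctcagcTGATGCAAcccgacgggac

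The 130 bases before the start are shown for Gars and Tars, which have a match there, on the strand of the gene, so that the core appears in capitals as its reverse complement.
Gars, chr6:55037871-55038000, plus strand: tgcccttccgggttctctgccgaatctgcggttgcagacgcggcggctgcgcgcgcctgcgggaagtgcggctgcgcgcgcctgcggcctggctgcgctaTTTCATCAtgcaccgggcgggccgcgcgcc
Tars, chr15:11399659-11399788, minus strand: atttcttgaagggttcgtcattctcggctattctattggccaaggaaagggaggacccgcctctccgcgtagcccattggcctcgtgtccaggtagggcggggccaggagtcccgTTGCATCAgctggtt

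The comparison in the design set knockdown against control cells. Of the 36 synthetase genes, 0 passed edgeR's quasi-likelihood test at a Benjamini-Hochberg adjusted p below 0.05, a threshold that 1.43% of the 16209 genes tested passed. At an unadjusted p below 0.05 there were 7 of 36 (19.4%), against 19.6% of all genes, so the share of members was close to that of the background. Of these, 1 was higher (Cars) and 6 were lower (Dars, Kars, Qars, Rars, Vars and Lars2), against 11.0% and 8.58% of all genes. The groups did not overlap for 20 of 36 members (55.6%), against 51.9% of all genes. DESeq2 called 3 members (Kars, Qars and Lars2), the edgeR likelihood ratio test called 2 (Kars and Qars) and limma-voom 0. DESeq2 and the likelihood ratio test also called more of all genes, 6.83% and 8.08%.

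The log2 fold changes of the synthetases lay mostly below 0. They were negative for 27 of 36 members (75.0%), against 49.5% of all genes tested, and the median was -0.19 against 0.01. This held for 15 of 20 cytosolic and 12 of 16 mitochondrial enzymes, and each set had a median of -0.19. The difference between the medians, cytosolic minus mitochondrial, was -0.003, and between -0.15 and -0.02 when 1 library was left out. Summed over genes, cytosolic enzymes took 5167 and 4739 CPM in the controls and 4302 and 4265 CPM in the knockdown libraries. Mitochondrial enzymes took 869 and 908 CPM against 736 and 749 CPM. Both sums were lower in each knockdown library than in each control. The cytosolic sum was 5.95 and 5.22 times the mitochondrial sum in the controls and 5.85 and 5.70 times in the knockdown libraries, so this ratio overlapped between the groups.

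**Figure D1:**
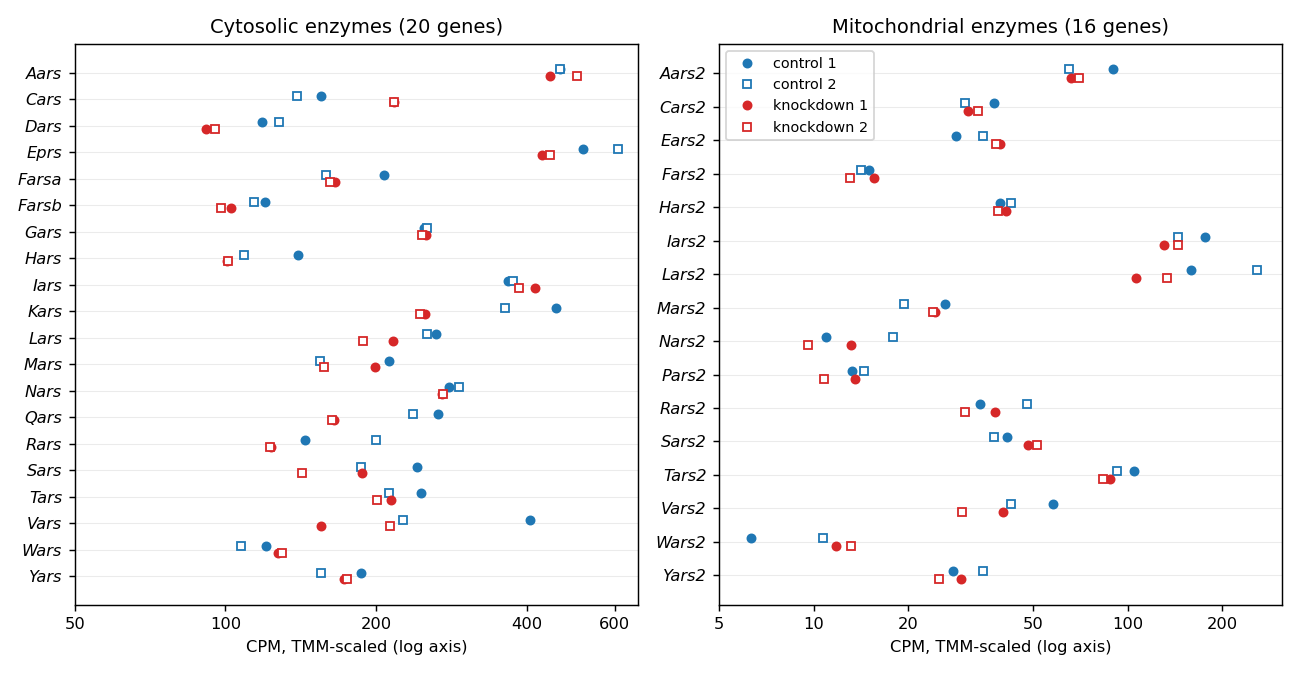
CPM of each synthetase gene (log axis) in the 2 control libraries (blue) and the 2 knockdown libraries (red), with replicate 1 as filled circles and replicate 2 as open squares. Kars and Qars lie lower and Cars lies higher in both knockdown libraries, and the groups do not overlap for 20 of the 36 genes.

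The cytosolic genes were next read by the ATF4 list, whose sets overlapped in their values. The median log2 fold change of the 11 ATF4-linked genes was -0.01 (0.04 with library totals as scaling), with 5 above 0 and 6 below, and the 9 others had a median of -0.40, with all 9 below 0. The difference of the medians was 0.39 and stayed between 0.34 and 0.44 when any 1 library was left out. In CPM, the ATF4-linked genes summed to 3043 and 2952 in the controls and to 2931 and 2876 in the knockdown libraries. The others summed to 2124 and 1787 in the controls, against 1371 and 1389 after knockdown. The first sum was thus 1.43 and 1.65 times the second in the controls and 2.14 and 2.07 times in the knockdown libraries. In 8 of the 9 other genes both knockdown libraries lay below both controls, where 24.6% of all genes did so. Among ATF4-linked genes this held for 2 of 11, and 3 of 11 lay above both controls, against 27.3% of all genes. No test of a list was made, because the lists were chosen with results of these data known.

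Cars, which charges cysteine, had the highest value of the cytosolic enzymes. It was at 155 and 139 CPM in the controls and at 217 and 218 CPM in the knockdown libraries, so that the groups stood apart. It had a log2 fold change of 0.56 (standard error, SE, 0.17) and did not pass (edgeR adjusted p = 0.122). The 95% interval of the log2 fold change ran from 0.18 to 0.95. Wars, which charges tryptophan, followed with 120 and 107 CPM in the controls and 127 and 129 CPM in the knockdown libraries, a log2 fold change of 0.17.

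The 5 genes with the response element core sat close to 0, between -0.14 and 0.11. Aars, the alanine enzyme, was at 467 and 467 CPM in the controls and at 446 and 503 CPM in the knockdown libraries, which lie on either side of them. Gars, the glycine enzyme, was at 249 and 253 CPM against 252 and 247 CPM. Its log2 fold change was -0.01, with a 95% interval from -0.39 to 0.37, so a change of up to that size in either direction lay within the interval. Iars (isoleucine) was at 367 and 376 CPM against 415 and 386 CPM, the only gene of the 5 whose groups did not overlap. Tars (threonine) and Yars (tyrosine) had log2 fold changes of -0.14 and 0.02. The median of these 5 genes was 0.02. The 8 cytosolic genes whose promoter window held no core (Dars, Eprs, Farsa, Farsb, Kars, Mars, Qars and Sars) had a median of -0.37, and each was below 0. Over all genes tested, the median was 0.06 for the 336 genes with the core and 0.002 for the 11503 genes in the promoter table without it.

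Among the remaining ATF4-linked genes, Mars (methionine) and Nars (asparagine) had log2 fold changes of -0.04 and -0.07. Eprs, a fused enzyme that charges both glutamate and proline, was at 518 and 608 CPM in the controls and at 430 and 446 CPM in the knockdown libraries. Sars, the serine enzyme, was at 242 and 187 CPM in the controls and at 187 and 142 CPM in the knockdown libraries, with the second control and the first knockdown library level. Their log2 fold changes were -0.36 and -0.38, the lowest of the ATF4-linked genes. That of Sars depended on each library: it was -0.18 and -0.61 with the first or second control left out, and -0.60 and -0.19 with the first or second knockdown library left out.

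**Figure D2:**
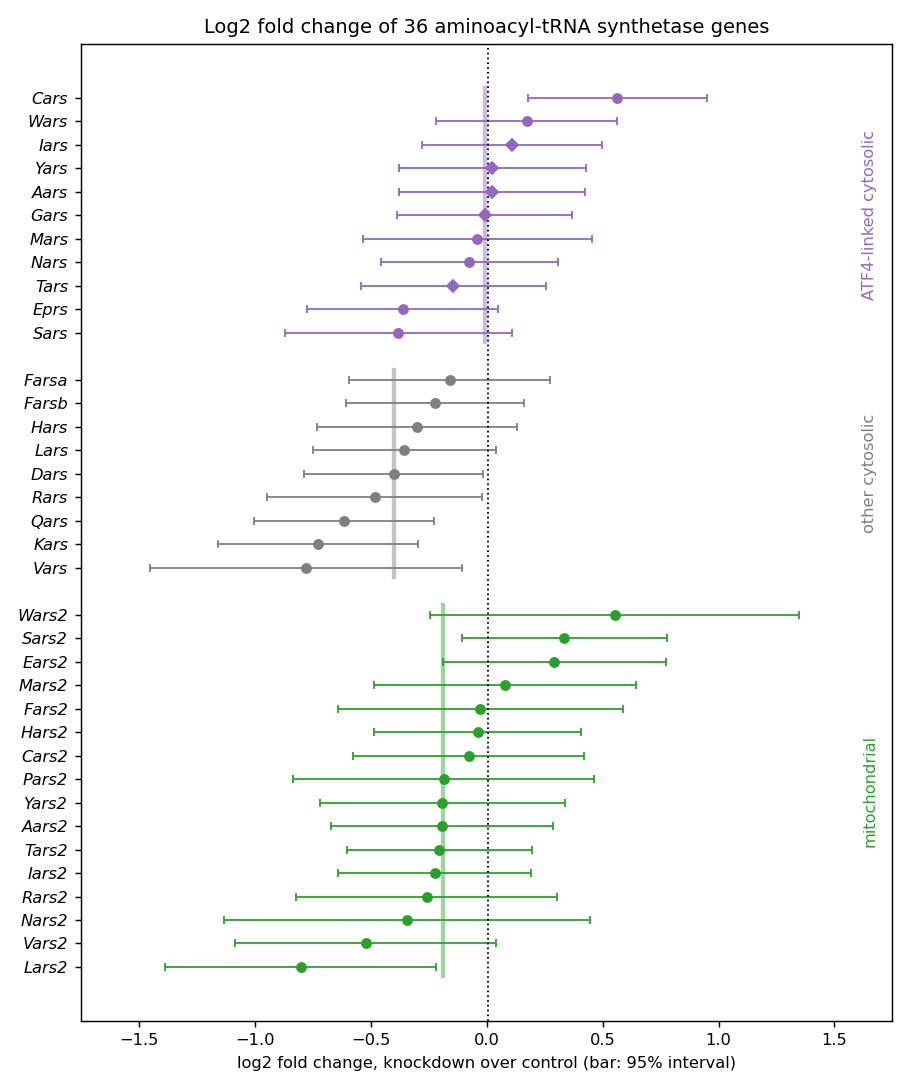
Log2 fold change, knockdown over control, of the 36 synthetase genes with 95% intervals from edgeR, in 3 sets (colours), with the median of each set as a thick line and that of all genes tested as a dotted line. Diamonds mark the 5 genes whose promoter window holds the core TGATGNAA. The other cytosolic genes all lie left of 0, while the ATF4-linked genes lie on both sides.

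Kars, which encodes the lysine enzyme of both the cytosol and mitochondria, had the lowest p of all 36 genes. It lies on chromosome 8 from 111993439 to 112011354 (mm10, minus strand). Its level was 458 and 362 CPM in the controls and 250 and 245 CPM in the knockdown libraries, which agreed closely and lay below both controls. The log2 fold change was -0.73 (SE 0.19; edgeR adjusted p = 0.0911). Without control replicate 2 it was -0.94 and passed (edgeR adjusted p = 0.0339), and without control replicate 1 it was -0.55 and did not. Qars, the glutamine enzyme, on chromosome 9 from 108508005 to 108515941 (plus strand), was at 266 and 237 CPM in the controls and at 165 and 163 CPM in the knockdown libraries. Its log2 fold change was -0.62 (SE 0.17; edgeR adjusted p = 0.105), and it ranged from -0.75 to -0.53 when 1 library was left out.

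Vars, the valine enzyme, on chromosome 17 from 35000907 to 35016329 (plus strand), had the lowest cytosolic log2 fold change, -0.78 (SE 0.29; edgeR adjusted p = 0.196). The controls were far apart, at 407 and 226 CPM, and the knockdown libraries were at 155 and 214 CPM, both below the lower control and the second only just. The value was -0.30 without control replicate 1 and -1.19 without control replicate 2, where the gene passed (edgeR adjusted p = 0.0391). Its size therefore rested on 1 control library. Rars, the arginine enzyme, was at 144 and 200 CPM against 123 and 123 CPM, with a log2 fold change of -0.48, which was -0.28 without control replicate 2. Dars, the aspartate enzyme, was at 119 and 128 CPM against 91.5 and 95.1 CPM, with a log2 fold change of -0.40 and little dependence on any library (-0.46 to -0.38). Lars (leucine) and Hars (histidine) were at -0.35 and -0.30, and Hars was at -0.11 without control replicate 1 and at -0.52 without control replicate 2. Farsa and Farsb, whose products together form the phenylalanine enzyme, were at -0.16 and -0.22, and only Farsa overlapped between groups, at 207 and 159 CPM against 166 and 162 CPM.

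Another division of the cytosolic enzymes is physical. In animal cells 8 of those listed here (Dars, Eprs, Iars, Kars, Lars, Mars, Qars and Rars) are held in the multisynthetase complex on 3 scaffold proteins. The other 12 are outside that complex and are called free below, whether or not they bind other proteins. Enzymes of the complex had a median log2 fold change of -0.38 and the free enzymes one of -0.11. The difference, -0.27, ranged from -0.44 to -0.12 when 1 library was left out and so was less steady than that between the ATF4 sets. The 2 divisions are not separate, since Dars, Kars, Lars, Qars and Rars are also among the other cytosolic genes. Within the complex these ran from -0.73 (Kars) to -0.35 (Lars). The ATF4-linked Eprs, Iars and Mars were at -0.36, 0.11 and -0.04. The sum over the complex enzymes was 0.833 and 0.957 times that over the free ones in the controls and 0.784 and 0.733 times in the knockdown libraries. Of the scaffold genes 0 of 3 passed, against 1.43% of all genes. Eef1e1 was at 67.6 and 68.1 CPM in the controls and at 45.5 and 52.0 CPM in the knockdown libraries (log2 fold change -0.48), Aimp1 had a log2 fold change of -0.21 and Aimp2 one of 0.03.

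Among the mitochondrial enzymes, Lars2, which charges leucine and lies on chromosome 9 from 123366927 to 123462675 (plus strand), had the lowest value. Its level was 160 and 259 CPM in the controls and 106 and 134 CPM in the knockdown libraries, so the groups stood apart although the controls were far from each other. The log2 fold change was -0.80 (SE 0.25; edgeR adjusted p = 0.138). It was -1.11 and passed without control replicate 1 (edgeR adjusted p = 0.0306), and was -0.46 without control replicate 2. Vars2 (valine) followed at -0.52, with 57.8 and 42.5 CPM in the controls and 40.1 and 29.7 CPM in the knockdown libraries. Its edgeR adjusted p was 0.288, and the log2 fold change was -0.29 without control replicate 1 and -0.32 without knockdown replicate 2.

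The highest mitochondrial value was that of Wars2, the tryptophan enzyme, on chromosome 3 from 99140107 to 99221230 (plus strand). It was at 6.34 and 10.7 CPM in the controls and at 11.8 and 13.2 CPM in the knockdown libraries. The log2 fold change of 0.55 (SE 0.35; edgeR adjusted p = 0.422) was 0.22 without control replicate 1 and 0.92 without control replicate 2. Sars2 (serine), at 41.4 and 37.6 CPM against 48.1 and 51.6 CPM, and Ears2 (glutamate), at 28.5 and 34.6 CPM against 39.2 and 38.0 CPM, were also above both controls in both knockdown libraries. Their log2 fold changes were 0.33 and 0.29, and neither passed. Sars2 was at 0.21 without control replicate 2, and Ears2 at 0.16 without control replicate 1. Mars2 was at 0.08.

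Among the other 10 mitochondrial genes, Fars2, Hars2 and Cars2 sat nearest to 0, at -0.03, -0.04 and -0.08. The rest ran from -0.19 to -0.34: Pars2, Yars2 and Aars2 each at -0.19, Tars2 at -0.20, Iars2 at -0.22, Rars2 at -0.26 and Nars2 at -0.34. In Iars2 and Tars2 the knockdown libraries lay below both controls. Iars2 was at 131 and 144.8 CPM against 177 and 145.2 CPM, so its second knockdown library was all but level with the second control. Tars2 was at 87.9 and 83.3 CPM against 105 and 92.7 CPM. Nars2 was at 10.9 and 17.9 CPM in the controls and 13.1 and 9.61 CPM in the knockdown libraries, and its value was 0.01 without control replicate 2. Without control replicate 1 and without control replicate 2 respectively, Rars2 was at -0.49 and -0.04, Iars2 at -0.08 and -0.41 and Tars2 at -0.12 and -0.34.

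Levels can be compared between genes per length, here as CPM per kb of the merged exons of a gene (GENCODE M21). In the controls the cytosolic genes ran from 22.4 to 91.8 CPM per kb with a median of 46.4, and the mitochondrial genes from 1.43 to 18.9 with a median of 9.36, so the sets did not overlap. In the knockdown libraries the medians were 37.4 and 8.09. Kars was highest in the controls at 91.8 CPM per kb, above Gars at 80.6 and Iars at 70.5. In the knockdown libraries Kars was at 55.5 CPM per kb, below Gars at 80.0, Iars at 76.0 and Nars at 62.3. Over 17 pairs of a cytosolic and a mitochondrial enzyme for the same amino acid, the cytosolic level per kb was the higher in all 17. The median ratio was 5.08 in the controls and 4.89 in the knockdown libraries. In the controls it ran from 2.55 for Lars over Lars2 to 31.7 for Nars over Nars2. Per kb of coding sequence the cytosolic gene was higher in 16 pairs in the controls, and Lars was at 0.946 times the level of Lars2. By that length the sets overlapped in the controls, with mitochondrial genes up to 77.3 CPM per kb and cytosolic genes from 59.0. The order of genes changed too. In the knockdown libraries Kars was at 132 per coding kb, above Gars at 114 and Iars at 106, and below Nars at 162 and Aars at 163.

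The cytosolic log2 fold change exceeded the mitochondrial one in 7 pairs and was below it in 10. Eprs was paired with both Ears2 and Pars2, and Fars2 with both Farsa and Farsb, so some pairs share a gene. The pairs that share a gene were all among the 10. The widest differences were for serine, with Sars at -0.38 and Sars2 at 0.33, for glutamate, with Eprs at -0.36 and Ears2 at 0.29, and for cysteine, with Cars at 0.56 and Cars2 at -0.08. For valine both were low, with Vars at -0.78 and Vars2 at -0.52. For tryptophan both were above 0, with Wars at 0.17 and Wars2 at 0.55. These differences between genes were not tested.

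**Figure D3:**
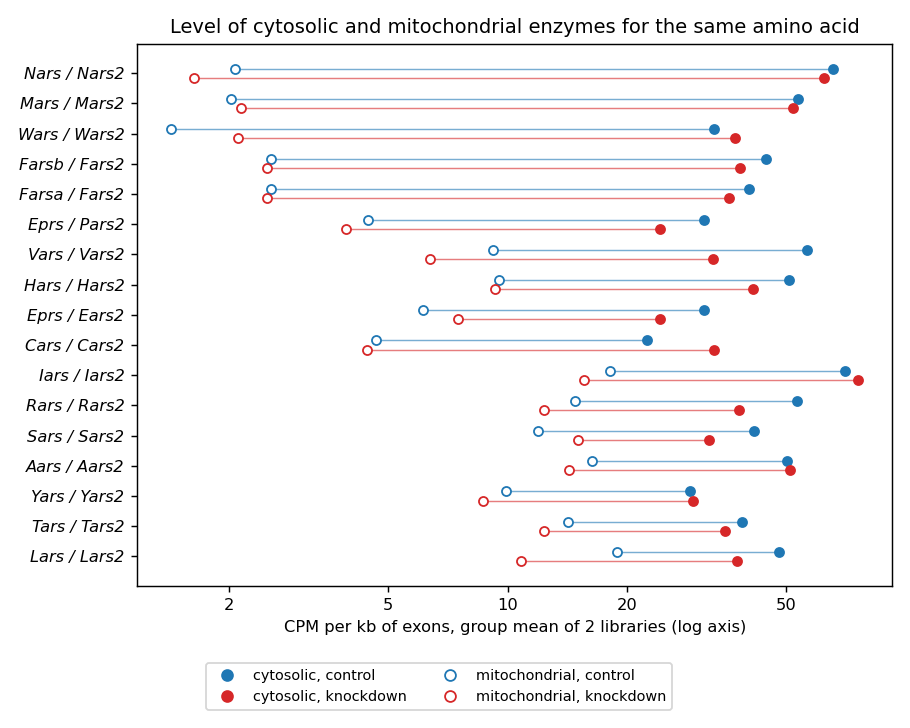
Level of the cytosolic (filled) and mitochondrial (open) enzyme for the same amino acid, as CPM per kb of exons (log axis, mean of 2 libraries), in control (blue) and knockdown (red) cells. The cytosolic enzyme is the higher in each of the 17 pairs in both groups.

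The genes that work with the synthetases were read from lists of their own, and none of the 3 lists had a gene that passed, against 1.43% of all genes. At an unadjusted p below 0.05 there were Eef1d (-0.67) in the first list, Aarsd1 and Dtd1 (-1.01) in the second and Gatb (0.58) in the third, of which Eef1d, Dtd1 and Gatb are named after their values were seen. Nuclear export of tRNA and delivery of charged tRNA to the ribosome (6 genes) had a median of -0.13 in log2 fold change, with Eef1a1, the elongation factor that carries charged tRNA, at -0.13 and Eef1g at -0.17. Of 4 genes for proteins that remove wrongly attached or D-amino acids, 3 were below 0. Aarsd1, an alanine editing enzyme, was at 72.5 and 53.2 CPM in the controls and at 34.6 and 38.6 CPM in the knockdown libraries, with a log2 fold change of -0.78 that did not pass (edgeR adjusted p = 0.110), and Dtd2 was at -0.56. Mitochondria lack a glutaminyl-tRNA synthetase of their own and convert glutamate already on the tRNA, through the amidotransferase Qrsl1, Gatb and Gatc. The 6 mitochondrial partners had a median of -0.05, with the elongation factors Tufm and Tsfm at -0.42 and -0.19.

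The ATF4 response itself was mixed. Atf4 was at 201 and 180 CPM in the controls and at 348 and 324 CPM in the knockdown libraries, well apart, with a log2 fold change of 0.82 (SE 0.17) and an edgeR adjusted p of 0.0589. It passed with DESeq2 (adjusted p = 0.00363), and in edgeR with the replicate block (adjusted p = 0.0456), with no filter, with the likelihood ratio test and without control replicate 1. Of the 8 regulators of the integrated stress response, 0 passed, and Ppp1r15b, a phosphatase subunit, was at 0.14. Among 25 ATF4 targets outside the synthetases, 2 rose and 1 fell, against 0.876% and 0.555% of all genes. Atf5, a transcription factor related to ATF4, rose from 15.5 and 24.0 CPM to 124 and 98.9 CPM (log2 fold change 2.50, SE 0.26; edgeR adjusted p = 0.0101). Atf3, a stress-induced factor, rose from 1.53 and 2.08 CPM to 6.96 and 17.4 CPM (log2 fold change 2.75, SE 0.51; edgeR adjusted p = 0.0493). It did not pass with any of the 3 other scalings (adjusted p = 0.0535 to 0.0613), with the filter of 1 CPM, with limma-voom or without either control library. Without knockdown replicate 2 its log2 fold change was 1.95 and did not pass either. Phgdh, the first enzyme of serine synthesis, fell from 129 and 129 CPM to 48.3 and 36.6 CPM (log2 fold change -1.60, SE 0.20; edgeR adjusted p = 0.0173).

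The 25 targets had a median log2 fold change of 0.05, close to that of all genes, with 14 above 0 and 11 below. Their values spread from -1.60 to 2.75. At an unadjusted edgeR p below 0.05 there were 8 higher and 4 lower (48.0%), against 19.6% of all genes. The groups did not overlap for 64.0% of the targets, against 51.9% of all genes. The response element core lay in the promoter of 8 of the 23 targets with a window (Asns, Chac1, Trib3, Atf3, Pycr1, Slc7a11, Vldlr and Nupr1). These 8 had a median of 0.46, from -0.94 for Pycr1 to 2.75 for Atf3, and the 15 without it one of -0.02. The cytosolic synthetases, from -0.78 to 0.56, covered a narrower range than either set.

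**Figure D4:**
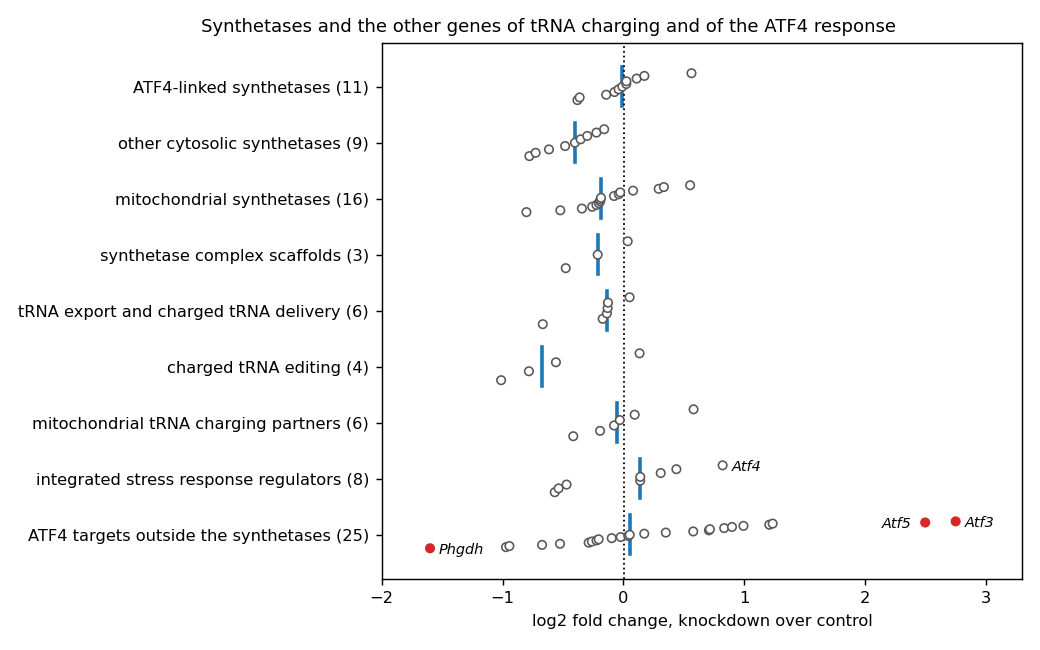
Log2 fold change, knockdown over control, of the synthetase sets and of the other genes of tRNA charging and the ATF4 response, 1 point per gene, with list medians as blue lines and the median of all genes as a dotted line. Filled red points passed the edgeR test (Atf5, Atf3 and Phgdh), and no synthetase did.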

How the data were processed

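The table the authors deposited holds raw counts of reads per gene in 4 libraries. Per the submitters' processing notes, cutadapt, HISAT2 and featureCounts were used with build mm10. Versions, annotation, strand setting and the treatment of reads with several matches are not stated in the labels, so counts shared with pseudogenes are uncertain, as are those of 9 members whose exons overlap another gene of the table (Aars with Exosc6 by 1326 bases, Iars2 with Rab3gap2 by 2034, Hars with Hars2 by 195, Mars with Ddit3 by 68). Library preparation selected mRNA, per the labels' protocols.

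Of 36068 rows, 92 empty spike-in rows were left out, and 27 rows with a symbol turned into a date (0.151% to 0.177% of counts) stayed in. filterByExpr of edgeR 4.0.16 (R 4.3.3) kept 16209 genes. Libraries were scaled by TMM, and the groups were tested by edgeR's quasi-likelihood F-test over all genes, with group as the only term and Benjamini-Hochberg adjustment. Genes with an adjusted p below 0.05 were called. The SE is the size of the fold change on the log2 scale over the root of F, and 95% intervals use the test's degrees of freedom. The procedure was tested on simulated data with the same spread set for every gene, so its error rate in these libraries is not known from that. With 2 libraries a group the precision is low, and the SE of the log2 fold change was larger for members with few reads (0.35 for Wars2, 0.16 for Gars). RefSeq positions matched 35 members by symbol and 1 (Mars) by synonym. The promoter sequence of 1 member is not reported here.

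Members and lists were chosen with earlier results of these data known. Named genes were all 36 members and, from each other list, those called or, with 0 called, the 2 most abundant. Eef1e1, and the pairs and promoter sets singled out, were chosen after their values were seen. Of the marker lists, Tdgf1 (log2 fold change -1.19) and Neurod1 (2.08) were called. The call of Neurod1 was lost without control replicate 2 and without knockdown replicate 2. Alternatives were other scalings, filters, DESeq2 1.42.0, limma-voom (limma 3.58.1), the likelihood ratio test, a replicate block, leaving out each library, leaving out the 50 most abundant genes and an adjusted p of 0.01. Without 1 library, the lone library of its group is assumed to vary like the other group.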

Additional observations from a re-analysis of the deposited data

How the results depend on the processing

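Over 14 other fits the medians of the cytosolic and mitochondrial sets stayed below 0. Leaving out 1 library moved the cytosolic median from -0.30 to -0.11 and the mitochondrial one from -0.16 to -0.09. Leaving out Gars and Kars, which also serve mitochondria and were dropped after seeing the data, left the cytosolic median at -0.19. This could not move the median, since Gars lies above it and Kars below it. The difference of the summed cytosolic over mitochondrial CPM, 0.189 higher in the knockdown cells, ran from -0.177 to 0.554.

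The 232 genes called became 1717 with no filter beyond 1 count, 1107 with DESeq2, 1310 with the likelihood ratio test, 17 at an adjusted p of 0.01 and 153 to 587 without 1 library (587 and 349 when the first or second control was left out, 386 and 153 when the first or second knockdown library was). The synthetases called became 4 with no filter (Kars, Qars, Vars and Lars2), 3 with DESeq2, 2 with the likelihood ratio test and 0 to 2 without 1 library. The replicate block called 656 genes and 0 synthetases. Deviations of same-numbered libraries correlated at -0.05 across genes. This value shows no shared deviation by number, but it cannot tell whether the libraries were made in pairs.

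Small values changed sign. Upper quartile scaling gave Aars -0.00969 and Yars -0.00651. Library totals as scaling gave Gars 0.0393, Mars 0.0170, Fars2 0.0243 and Hars2 0.00872. Ranges without 1 library crossed 0 for Aars (-0.0663 to 0.10), Yars (-0.15 to 0.16), Gars (-0.0495 to 0.00591), Mars (-0.30 to 0.20), Farsa (-0.39 to 0.0438), Aars2 (-0.46 to 0.0559), Cars2 (-0.28 to 0.0844), Fars2 (-0.16 to 0.0946), Hars2 (-0.10 to 0.00563), Mars2 (-0.17 to 0.31) and Nars2 (-0.66 to 0.00646). The cause of these changes was not tested.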
